A study of Mus musculus with 6 samples.

Results

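Type I interferon response genes are the genes that cells switch on when interferon alpha or beta binds its receptor. The 43 genes described here were chosen by symbol from a fixed list of interferon-stimulated effectors, nucleic acid sensors and STAT and IRF transcription factors, and all 43 were found among the 52550 genes of the files. Poly(A) RNA was sequenced from cells of mouse bone marrow that the labels name hematopoietic stem cells. The knockout (KO) group had 3 libraries, KO1 to KO3, from mice with floxed Ppp2ca alleles and VAV1cre, a recombinase driven by a promoter active in blood cells of all lineages. The wild-type (WT) group had 3 libraries, WT1 to WT3, from mice with the same floxed alleles (Ppp2caf/f), for which no recombinase is named, so the recombinase itself differs between the groups too. Neither the age of the mice nor the markers by which the cells were chosen are stated in the sources used here. Ppp2ca encodes a catalytic subunit of protein phosphatase 2A, and the study asked which genes differ when it is deleted.

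In the textbook pathway, interferon alpha and beta bind the receptor chains IFNAR1 and IFNAR2, the kinases JAK1 and TYK2 phosphorylate STAT proteins, STAT2 among them, and these join IRF9 in a complex that enters the nucleus. The complex binds the interferon-stimulated response element, a DNA motif in the promoters of the induced genes. Their products sense viral RNA, block viral entry, translation or release, and in part feed back on the pathway. In hematopoietic stem cells interferon is known to drive quiescent cells into division, and stem cells are known to keep some of these genes expressed without infection.

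The response element shows in the promoters of many of these genes. RefSeq promoter windows of GRCm38.p6, each running from 250 bases before to 50 bases after a transcription start, were at hand for 32 of the 43 genes. The core of the element, which reads GAAA, then 2 bases of any kind, then GAAA again on either strand, stood in a window of 15 of the 32, or 46.9%, against 3.99% of all 27025 genes in the table. The longer form with CT after this core stood in 7 of the 32, or 21.9%, against 0.303% of all genes. The core of the gamma-activated site, TTCNNNGAA, which pairs of STAT proteins bind, stood in 10 of the 32, or 31.2%, against 9.55% of all genes. The response element core stood in 9 of the 18 genes with a window that were lower in KO and in 6 of the 13 that did not pass the test. The gamma-activated site core stood in 3 of those 18 and in 7 of those 13. The 5 stretches printed first are the last 150 bases before a RefSeq start in genes that fell in KO, the gene with the largest fall of its role group among those with a match there. Capitals mark each match to this core or its reverse complement, and all are written 5′ to 3′ on the strand of the gene. The stretch of Ifi203 belongs to a start that lies inside the gene as GENCODE annotates it, and the window of Ifi203 at the outer start held no match.
Ifit3 (chr19:34583379-34583528, plus strand): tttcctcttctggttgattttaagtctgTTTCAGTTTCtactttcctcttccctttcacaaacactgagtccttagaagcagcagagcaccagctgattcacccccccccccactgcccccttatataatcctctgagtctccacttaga
Oas3 (chr5:120777660-120777809, minus strand): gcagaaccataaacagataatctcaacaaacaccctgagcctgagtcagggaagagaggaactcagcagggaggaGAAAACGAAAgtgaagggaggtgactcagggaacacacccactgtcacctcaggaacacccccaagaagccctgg
Rsad2 (chr12:26456453-26456602, minus strand): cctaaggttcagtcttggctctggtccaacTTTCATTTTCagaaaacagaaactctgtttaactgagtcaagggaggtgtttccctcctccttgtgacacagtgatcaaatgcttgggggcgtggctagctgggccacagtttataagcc
Ifi203 (chr1:173942493-173942642, minus strand): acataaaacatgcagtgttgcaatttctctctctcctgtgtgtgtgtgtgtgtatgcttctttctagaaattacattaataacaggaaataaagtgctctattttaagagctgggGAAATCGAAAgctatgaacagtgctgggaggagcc
Trim30a (chr7:104465194-104465343, minus strand): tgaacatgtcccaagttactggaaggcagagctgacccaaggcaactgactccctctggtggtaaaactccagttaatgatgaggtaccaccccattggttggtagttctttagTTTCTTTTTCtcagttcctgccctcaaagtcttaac

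For comparison, 3 genes chosen after their values were seen are shown from 150 to 51 bases before a RefSeq start. Isg15, the classic induced gene, held 3 overlapping matches. Ifi44, which had the largest fall with a pseudocount of 1, and Ifitm1, the gene that rose, held no match in the window searched for each. The window of Ifitm1 is at a start inside the gene as GENCODE annotates it, and the sequence at the outer start was not searched. A match describes the letters of these windows, and its absence says nothing of elements elsewhere.
Isg15 (chr4:156200869-156200968, minus strand): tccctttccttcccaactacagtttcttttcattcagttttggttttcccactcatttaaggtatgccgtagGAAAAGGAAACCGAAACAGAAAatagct
Ifi44 (chr3:151749961-151750060, minus strand): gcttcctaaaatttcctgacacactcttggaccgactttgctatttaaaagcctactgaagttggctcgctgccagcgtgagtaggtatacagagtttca
Ifitm1 (chr7:140967926-140968025, plus strand): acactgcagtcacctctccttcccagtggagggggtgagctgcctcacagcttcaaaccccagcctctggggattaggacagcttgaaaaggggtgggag

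Most interferon response genes fell in KO. All 43 passed the filter on low values, and 28 of them were lower and 1 was higher in KO, while 14 did not pass the test. Across all 20136 genes tested, 13% were lower and 10.3% higher in KO by the same rule, that is 2622 and 2069 genes, or 3511 and 1337 with scaling to a common total. The test was limma's moderated test on log2 values with Benjamini-Hochberg adjustment over all genes tested and a threshold of 0.05. Values are normalised read counts, that is reads per gene divided by a size factor per library, and log2 fold changes are KO minus WT on the log2(value + 1) scale. The median log2 fold change of the 43 genes was −1.11, beside −0.02 over all genes tested. At least 2-fold lower and past the test were 21 of the 43, beside 8.3% of all genes tested. In 31 of the 43 all KO values lay below all WT values, beside 21.7% of all genes, and in 2 all KO values lay above, beside 19.1%. With edgeR's quasi-likelihood test on recovered reads 29 were lower and 1 was higher, where 14.9% and 12.4% of all genes passed in those directions. Without WT1 the number of lower members was 17, without WT3 it was 16, and without limma's intensity trend it was 16. Of all 20136 genes, 1617, 1723 and 1750 were lower in those fits.

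**Figure D1:**
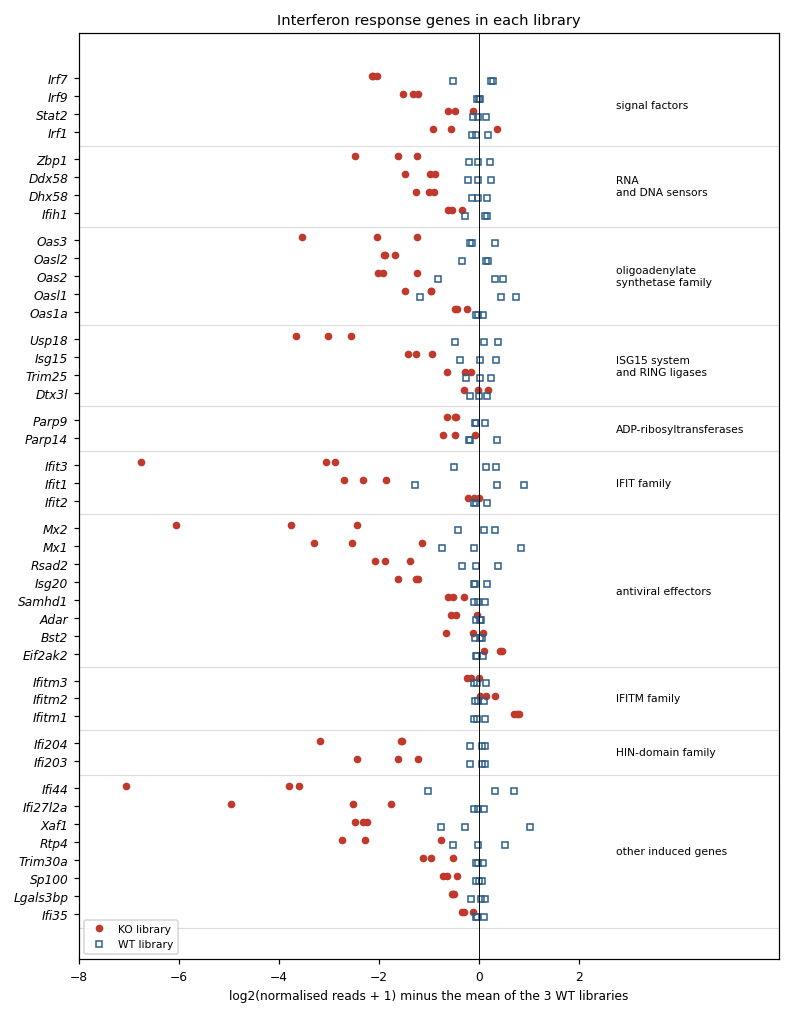
Each of the 43 genes by role, with log2(normalised reads + 1) minus the mean of the 3 WT libraries on the x axis, filled red circles for KO libraries and open blue squares for WT libraries. KO circles lie left of all WT squares for 31 genes and right of them for Ifitm1 and Eif2ak2.

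The targeted gene and lists of cell type markers frame these values. Ppp2ca had 23728, 22419 and 24046 normalised reads in KO libraries and 32909, 33451 and 33169 in WT libraries, so KO kept 70.5% of the WT level. In bulk RNA, fewer cells of a type and less RNA per cell cannot be told apart. Markers said to fall or rise passed the same test, by which 13% of all genes tested were lower and 10.3% higher. In the test were 7 of 8 plasmacytoid dendritic cell, 11 of 12 macrophage and monocyte and 5 of 8 B cell markers. So were 8 of 10 T and NK cell and 4 of 5 endothelial markers, and all markers of the other lists. All 10 stem cell markers were read in both groups, 9 of them fell, and their summed level was 19260.1 to 25036 in KO and 45279.9 to 57309.5 in WT. The granulocyte-monocyte progenitor markers rose in 6 of 6, with sums of 1851792 to 2068725 in KO and 1246801 to 1476542 in WT. Plasmacytoid dendritic cell markers, of the cells known for making much interferon, fell in 6 of 8, with sums of 1990.2 to 2429.75 in KO and 4087 to 4396 in WT, and Klk1 was at 0 in all libraries. Most of that sum was Tcf4, with means of 2210.5 in KO and 3852 in WT, so the sum hides larger falls of less expressed markers. Siglech, Spib and Ly6d averaged 1.31, 1.15 and 2.62 in KO and 41.3, 41.9 and 156 in WT, each at 0 in KO1. Ccr9 and Cox6a2 averaged 11.7 and 40.8 in KO and 57.99 and 111 in WT, and Pacsin1 did not pass. Macrophage and monocyte markers fell in 3 of 12, with overlapping sums of 9138 to 13829 in KO and 13050.1 to 19913 in WT, and Marco was at 0 in all KO libraries. B cell markers fell in 2 of 8, with sums of 5763 to 7063 in KO and 31203 to 54013 in WT, Pax5 and Ebf1 at 0 in all libraries and Ms4a1 at 0 in KO. Of 10 T and NK cell markers 5 fell and 1, Nkg7, rose, with sums of 41696 to 43915 in KO and 33794 to 35252 in WT, Cd8a at 0 in all libraries and Ncr1 at 0 in KO. Nkg7 alone made up nearly all of that sum, with means of 42658 in KO and 34159 in WT, while Trbc1, a T cell receptor gene, averaged 12.2 in KO and 171 in WT. Cd3d, Cd3e and Cd3g averaged 3.82, 1.31 and 1.64 in KO and 1.95, 2.85 and 11.0 in WT. Cd3d and Cd3g did not pass, and Cd3e was not tested. Of 8 neutrophil markers 2 rose and 1 fell, with sums of 99412 to 210765 in KO and 64519.8 to 100872 in WT. The 6 erythroid and 6 megakaryocyte markers all fell, with erythroid sums of 2344 to 3443 in KO and 8424 to 11043 in WT and megakaryocyte sums of 4771 to 6697 in KO and 20782 to 24782 in WT. Endothelial markers fell in 4 of 5, with sums of 2149 to 4341 in KO and 6871 to 7633 in WT and Cdh5 at 0 in all libraries. Most of that sum was Pecam1, with means of 3117 in KO and 5229 in WT. Kdr, Emcn and Tek averaged 4.88, 37.1 and 120 in KO and 75.1, 603 and 1334 in WT. Whether these genes mark endothelial cells in these samples was not tested. The part of these cell types in the interferon response results was not tested.

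Of the transcription factors that carry the signal, Irf9 and Irf7 fell and Stat2 and Irf1 did not pass the test. Irf9 encodes the DNA-binding subunit of the interferon-activated complex (chromosome 14, 55603571 to 55610030, GRCm38). It had 1164, 1433 and 1332 normalised reads in KO libraries and 3369, 3409 and 3248 in WT libraries. The groups lay far apart and each was narrow, with means of 1309.8 ± 136 in KO and 3342 ± 83.5 in WT (SD, n = 3 each). Irf9 thus had a log2 fold change of −1.36 ± 0.11 (SE, limma adjusted p = 0.000595). Irf7, which is induced by interferon and drives further interferon production, had 106, 108 and 114 normalised reads in KO libraries and 560.3, 329 and 573 in WT libraries. The KO libraries were nearly level while WT2 was the lowest WT library, and the log2 fold change was −2.10 ± 0.27 (SE, limma adjusted p = 0.00211).

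Stat2, the partner of IRF9 in the complex, had 743, 1047 and 818 normalised reads in KO libraries and 1123, 1057 and 1254 in WT libraries. The groups did not overlap, but KO2 lay close to WT2, and the difference did not pass (log2 fold change −0.41, 95% confidence interval −0.78 to −0.04, limma adjusted p = 0.109). It passed in 3 of 19 alternatives, including when leaving out KO2 (adjusted p = 0.0373). Irf1, a transcription factor that interferon gamma also induces, had 3329.9, 1765 and 1374 normalised reads in KO libraries and 2517, 2974 and 2356 in WT libraries. KO1 was the highest of all 6 libraries while the other KO libraries were the lowest. The difference did not pass (log2 fold change −0.38, interval −1.06 to 0.31, limma adjusted p = 0.419), and without KO1 it did (adjusted p = 0.0225).

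All 4 sensor genes fell. Zbp1, which binds left-handed nucleic acids and can start necroptosis, had 27.9, 66.8 and 50.9 normalised reads in KO libraries and 138, 187 and 157 in WT libraries. The groups did not overlap, and KO kept 30.2% of the WT level (log2 fold change −1.78 ± 0.39 SE, limma adjusted p = 0.0155). Its call was lost without WT2 (adjusted p = 0.0588) and without WT3 (0.0509). Ifih1, which encodes the long double-stranded RNA sensor MDA5, had 1609, 1945 and 1702 normalised reads in KO libraries and 2749, 2034 and 2683 in WT libraries. It showed the smallest fall of the sensors, with KO2 just under WT2 (−0.50 ± 0.15 SE, limma adjusted p = 0.0436). That call was lost in 8 of 19 alternatives, including when leaving out WT1 or WT3 and KO1 or KO3 (adjusted p up to 0.136). Between these lay Ddx58, the gene of the RNA sensor RIG-I, with means of 766 ± 161 in KO and 1641 ± 267 in WT (SD, n = 3 each), a log2 fold change of −1.11. Dhx58, the gene of the regulatory helicase LGP2, averaged 593 ± 71.3 in KO and 1229 ± 127 in WT, a log2 fold change of −1.05. Their adjusted p-values in limma were 0.00686 and 0.00305.

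The oligoadenylate synthetases make a messenger that activates RNase L, which cleaves RNA, and 4 of the 5 family members fell. Oas3, the family member with the largest fall, had 76.1, 378 and 219 normalised reads in KO libraries and 1115, 795 and 815 in WT libraries. KO1 was the lowest library, and the log2 fold change of −2.27 ± 0.52 (SE, limma adjusted p = 0.0181) became −1.64 without it. The call for Oas3 was lost without any one of WT1 to WT3 or KO3, or without limma's intensity trend (adjusted p up to 0.0815). Oas1a had 1354, 1601 and 1402 normalised reads in KO libraries and 2019, 1809.9 and 1864 in WT libraries. Its fall was the smallest of those called in the family (−0.39 ± 0.11 SE, limma adjusted p = 0.0423), and 8 of 19 alternatives lost it, including when leaving out any WT replicate and without KO1 or KO3. Of the distinct 50-base words in transcripts of Oas1a 57.6% also stand in other genes, nearly all in Oas1g, so its level is uncertain. Oas1g itself averaged 378 normalised reads in KO and 418 in WT.

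Oasl2 averaged 581 ± 51.5 normalised reads in KO and 2069 ± 385 in WT (SD, n = 3 each), and its call (log2 fold change −1.82, limma adjusted p = 0.000794) held in all 19 alternatives. Oas2 averaged 109 ± 34.3 in KO and 376 ± 156 in WT (−1.72, limma adjusted p = 0.0187). The call for Oas2 was lost without WT1, WT3, KO1, KO3 or limma's intensity trend (adjusted p up to 0.0802). Oasl1, whose mouse protein represses translation of Irf7, had 89.0, 128 and 128 normalised reads in KO libraries and 109.9, 339 and 421 in WT libraries. WT1 lay within the KO range, and the difference did not pass (−1.14, interval −2.29 to 0.01, limma adjusted p = 0.142). Without WT1 the log2 fold change was −1.73 and passed (adjusted p = 0.0177).

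In the ISG15 system, Usp18 fell to 11.9% of its WT level and Isg15 itself lay at the edge of the threshold. Usp18 encodes the protease that removes ISG15 from proteins and restrains signalling at IFNAR2 (chromosome 6, 121245906 to 121270917). It had 69.7, 109 and 149 normalised reads in KO libraries and 1156, 636 and 956 in WT libraries. Every WT library was far above every KO library, with a log2 fold change of −3.08 ± 0.34 (SE, limma adjusted p = 0.00138) that held in all 19 alternatives. Isg15, the ubiquitin-like modifier, had 31.1, 27.5 and 38.8 normalised reads in KO libraries and 77.2, 58.0 and 96.5 in WT libraries. These groups did not overlap, and the mean in KO was 42.0% of that in WT. The log2 fold change of −1.21 (interval −2.09 to −0.32) did not pass in limma (adjusted p = 0.0559) and passed in 6 of 19 alternatives, edgeR among them (adjusted p = 0.0450).

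The ubiquitin ligase and ADP-ribosyltransferase genes moved less. Dtx3l, a ligase that works in a complex with PARP9, had 3191, 4429 and 3866 normalised reads in KO libraries and 4393, 3911 and 3473 in WT libraries. The groups overlapped throughout, with a log2 fold change of −0.04 and an interval of −0.38 to 0.29. Parp9, which shares a promoter region with Dtx3l and lies on the opposite strand, had 1316, 1497 and 1459 normalised reads in KO libraries and 1976, 1936 and 2225 in WT libraries. It fell (−0.52 ± 0.11 SE, limma adjusted p = 0.0137), a call lost without KO3 (adjusted p = 0.0521) or limma's intensity trend (0.0505). Exons of both overlap, over 9.4% of the exon bases of Parp9 and 8% of those of Dtx3l, and the sources used here do not say whether the library kit marks strand. Parp14, a mono-ADP-ribosyltransferase, had 371, 486 and 311 normalised reads in KO libraries and 664, 454 and 451 in WT libraries, which overlapped (−0.42, interval −0.98 to 0.13). Trim25, a ligase that acts on RIG-I, averaged 1991 ± 334 in KO and 2548 ± 445 in WT (SD, n = 3 each) and did not pass (−0.36, limma adjusted p = 0.183).

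**Figure D2:**
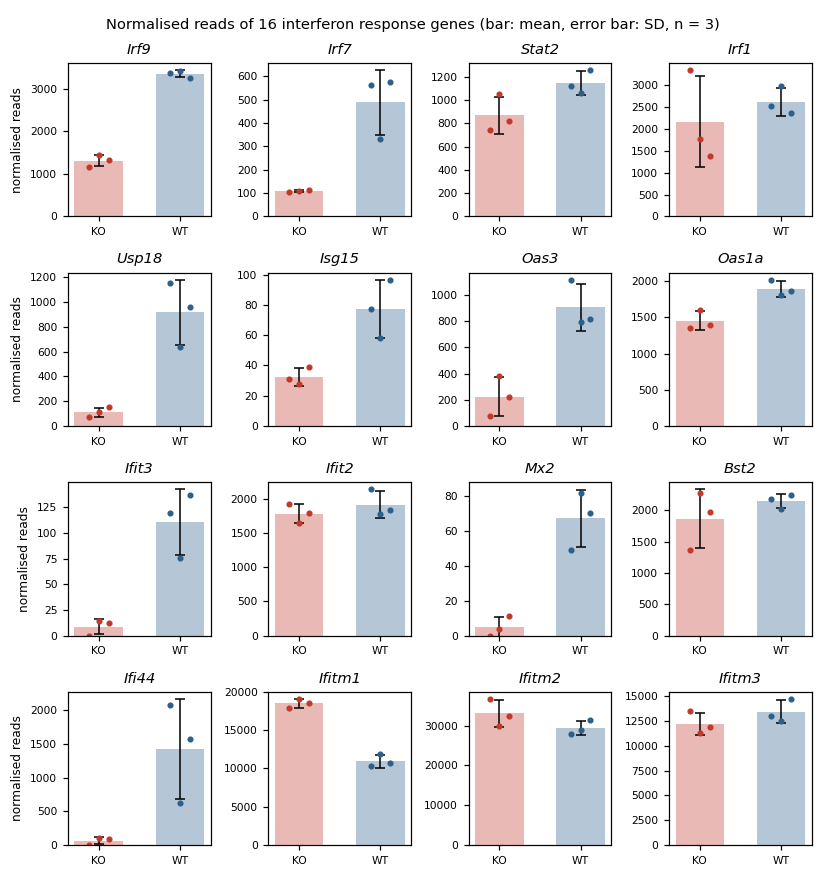
Normalised reads (y axis, linear from 0) of 16 genes in KO (red) and WT (blue) libraries, with points for libraries, bars for means and error bars for the SD of 3 libraries. Irf9, Irf7, Usp18, Oas3, Ifit3, Mx2 and Ifi44 show separated groups with KO lower, while Irf1, Ifit2, Bst2, Ifitm2 and Ifitm3 overlap and Ifitm1 is higher in KO.

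The IFIT genes, whose proteins bind foreign RNA and curb its translation, differed among themselves. Ifit3 had 0, 13.8 and 12.1 normalised reads in KO libraries and 119, 75.2 and 137 in WT libraries. KO1 had no read, and the log2 fold change of −4.23 ± 1.02 (SE, limma adjusted p = 0.0217) became −2.96 without that library, −4.90 without KO2 and −4.82 without KO3. Leaving out any WT replicate lost the call for Ifit3 (adjusted p up to 0.0835). So did a pseudocount of 0.1 (adjusted p = 0.0789) and dropping limma's intensity trend (0.0683). Of the distinct 50-base words in its transcripts 51.2% also stand in other genes, nearly all in Ifit3b, so reads of these genes cannot be cleanly separated. Ifit3b itself was at 0 in each KO library and had 46.8, 11.4 and 44.5 normalised reads in WT libraries.

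Ifit1 had 72.9, 56.0 and 102 normalised reads in KO libraries and 696, 152 and 476 in WT libraries. The WT libraries spread widely, and the log2 fold change of −2.29 (limma adjusted p = 0.0211) was −2.93 without WT2. That call was lost without WT1, WT3, KO1, KO2 or limma's intensity trend (adjusted p up to 0.0788). Ifit2, by contrast, had 1919, 1642 and 1790.4 normalised reads in KO libraries and 2139, 1780.4 and 1834 in WT libraries. Those groups overlapped, with a log2 fold change of −0.10 and an interval of −0.38 to 0.17 (limma adjusted p = 0.589). Ifit2 passed in none of the 19 alternatives.

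Among other antiviral effectors, 5 of 8 fell. The dynamin-like GTPase gene Mx2 had 0, 3.93 and 11.2 normalised reads in KO libraries and 49.1, 81.8 and 70.0 in WT libraries. KO1 again had no read, and the log2 fold change was −4.09 ± 0.90 (SE, limma adjusted p = 0.0157), −3.10 without KO1 and −4.91 without KO3. Leaving out any WT replicate lost the call for Mx2 (adjusted p up to 0.0573 among these), and so did a pseudocount of 0.1 (adjusted p = 0.0616). Its neighbour Mx1, the nuclear GTPase that blocks influenza virus, averaged 20.004 ± 16.2 in KO and 94.6 ± 52.7 in WT (SD, n = 3 each). The log2 fold change of Mx1 was −2.32 (limma adjusted p = 0.0412), or −2.92 without KO2. It lost its call in 9 of 19 alternatives, including when leaving out any WT replicate and without KO1 or KO3 (adjusted p up to 0.133).

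Rsad2, which encodes viperin, a maker of a chain-terminating nucleotide, had 105, 90.4 and 148 normalised reads in KO libraries and 504, 306 and 374 in WT libraries. It fell (−1.78 ± 0.29 SE, limma adjusted p = 0.0049), as did the exonuclease gene Isg20, with means of 403 ± 58.0 in KO and 1033 ± 109.6 in WT (−1.36, adjusted p = 0.00191). Both calls held in all 19 alternatives. Samhd1, which depletes deoxynucleotides, fell less, with means of 2430.5 ± 284 in KO and 3360.4 ± 263 in WT (−0.47, limma adjusted p = 0.0241). Its call was lost without WT1, WT2, KO2, KO3 or limma's intensity trend (adjusted p up to 0.0942).

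Adar, Eif2ak2 and Bst2 did not pass the test. Bst2 encodes tetherin, which holds budding virus at the cell surface, and had 1359, 2268 and 1976 normalised reads in KO libraries and 2183, 2028 and 2246 in WT libraries. KO2 was the highest of all 6 libraries and KO1 the lowest (log2 fold change −0.24, interval −0.66 to 0.19, limma adjusted p = 0.417). Adar, the RNA editing enzyme, averaged 1984 ± 396 in KO and 2491 ± 93.4 in WT (SD, n = 3 each) and did not pass (−0.35, limma adjusted p = 0.131), though it did without KO2 (adjusted p = 0.0190). Of its exon bases 16.8% overlap Chrnb2 on the opposite strand. Eif2ak2, the gene of the RNA-activated kinase PKR that halts translation, had 1258, 969.6 and 1215 normalised reads in KO libraries and 889, 874 and 958 in WT libraries. All KO values lay above all WT values, and the difference of 0.33 (interval 0.01 to 0.66) did not pass in limma (adjusted p = 0.132).

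The IFITM genes encode small membrane proteins that hinder viral fusion, and none of the 3 listed fell. They lie close together on chromosome 7 and stood highest among the 43 genes per kilobase of exon in both groups. Ifitm1 (140967221 to 140969825) had 17874, 19005 and 18598 normalised reads in KO libraries and 10263, 11852 and 10657 in WT libraries. Both groups were tight and far apart, at means of 18493 ± 573 in KO and 10924 ± 828 in WT (SD, n = 3 each). It was the 1 member that rose, by 0.76 ± 0.08 on the log2 scale (SE, limma adjusted p = 0.00137), in all 19 alternatives. Ifitm2 had 36647, 29998 and 32459.9 normalised reads in KO libraries and 27832, 28909.6 and 31393 in WT libraries. These overlapped (0.17, interval −0.06 to 0.39, limma adjusted p = 0.263), and quantile normalization turned the sign of Ifitm2 to −0.14. Of the distinct 50-base words of Ifitm2 48.5% are shared with other genes, Gm45717 and pseudogenes among them, so its level is uncertain. Ifitm3 had 13474, 11298 and 11952 normalised reads in KO libraries and 13042, 12502 and 14724 in WT libraries, which overlapped as well (−0.13, interval −0.36 to 0.10, limma adjusted p = 0.393). IFITM genes made up 56.5% of the summed normalised reads of the 43 genes in KO and 40.7% in WT.

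Both genes of the HIN family, whose proteins carry DNA-binding HIN domains, fell. Ifi203 had 1061, 2482 and 1886 normalised reads in KO libraries and 6324, 5101 and 6011 in WT libraries. KO1 was the lowest, and all KO libraries stood well below all WT libraries. The log2 fold change of Ifi203 was −1.76 ± 0.28 (SE, limma adjusted p = 0.00466), and its call held in all 19 alternatives. Ifi204 had 33.2, 104 and 104 normalised reads in KO libraries and 333, 270.3 and 321 in WT libraries. Its fall (−2.09 ± 0.45 SE, limma adjusted p = 0.0149) lost the call without WT1 (adjusted p = 0.0639), WT3 (0.0535) or limma's intensity trend. Of the distinct 50-base words, 12.2% of those of Ifi203 and 20.02% of those of Ifi204 stand in neighbouring family members or pseudogenes. Mndal, one of these, averaged 1391 normalised reads in KO and 2982 in WT.

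Of the 8 other induced genes 7 fell, and Ifi44 showed the largest fall of all 43 genes with a pseudocount of 1. With a pseudocount of 0.1 its log2 fold change was −4.87, and those of Ifit3 (−5.39) and Mx2 (−5.31) were larger. Ifit3 and Mx2 did not pass in limma at that pseudocount (adjusted p = 0.0789 and 0.0616). Ifi44 (chromosome 3, 151730922 to 151749960) had 8.57, 104 and 90.6 normalised reads in KO libraries and 2076, 623 and 1576 in WT libraries. The lowest WT library stood well above the highest KO library, and the KO mean was 4.75% of the WT mean. On the log2 scale the difference was −4.81 ± 0.91 (SE, limma adjusted p = 0.00881), −3.69 without KO1 and −5.42 without KO2. Ifi27l2a averaged 26.4 ± 21.5 in KO and 163 ± 11.9 in WT (SD, n = 3 each), a log2 fold change of −3.07 (limma adjusted p = 0.0243). Without KO1 it was −2.14 and without KO2 it was −3.73. The call for Ifi27l2a was lost without any one WT replicate, KO3 or limma's intensity trend (adjusted p up to 0.0860).

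Xaf1, whose protein binds the apoptosis inhibitor XIAP, had 79.3, 83.5 and 70.8 normalised reads in KO libraries and 236, 328 and 817 in WT libraries. The KO libraries agreed closely and the WT libraries spread widely (−2.35 ± 0.44 SE, limma adjusted p = 0.00859). Rtp4 had 135, 393 and 98.4 normalised reads in KO libraries and 952, 463 and 658 in WT libraries, with KO2 near WT2. Its log2 fold change of −1.92 (limma adjusted p = 0.0304) was −2.51 without KO2. The call for Rtp4 was lost in 7 of 19 alternatives, including when leaving out any WT replicate and without KO1 or KO3 (adjusted p up to 0.122).

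The remaining induced genes moved less. Trim30a, a tripartite motif protein gene, averaged 1966 ± 442 in KO and 3528 ± 174 in WT (SD, n = 3 each; −0.87, limma adjusted p = 0.00755). Sp100, a nuclear body component, averaged 5263 ± 534 in KO and 7941 ± 319.7 in WT (−0.60, adjusted p = 0.00484). Lgals3bp, a secreted glycoprotein, averaged 9366 ± 178 in KO and 13449 ± 1336 in WT (−0.52, adjusted p = 0.00696). The calls for Trim30a and Sp100 held in all 19 alternatives, and dropping the intensity trend took Lgals3bp to an adjusted p of 0.0522. Ifi35 had 2303, 2674 and 2359.9 normalised reads in KO libraries and 2771, 2808 and 3113 in WT libraries. Those groups did not overlap, but the difference of −0.25 (interval −0.49 to −0.01) did not pass in limma (adjusted p = 0.131).

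Among the 43 genes, the size of the difference varied with the level of the gene. Whether it does so over all genes tested was not examined. Levels per kilobase of exon in WT ran from 18.5 normalised reads for Mx2 to 44853 for Ifitm2. Among the 10 genes with the highest WT level per kilobase, 5 fell, and their median log2 fold change was −0.32. Among the 10 with the lowest, 8 fell, with a median of −1.93. Of all genes tested, 13% fell. Across the 43 genes the Spearman correlation of WT level per kilobase and log2 fold change was 0.62, given as a description since genes are not independent replicates and the WT values enter both quantities. Ifi44, Usp18 and Ifi27l2a stood mid-range in WT, at 233, 328 and 351 per kilobase, and at 11.1, 39.2 and 56.9 in KO.

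**Figure D3:**
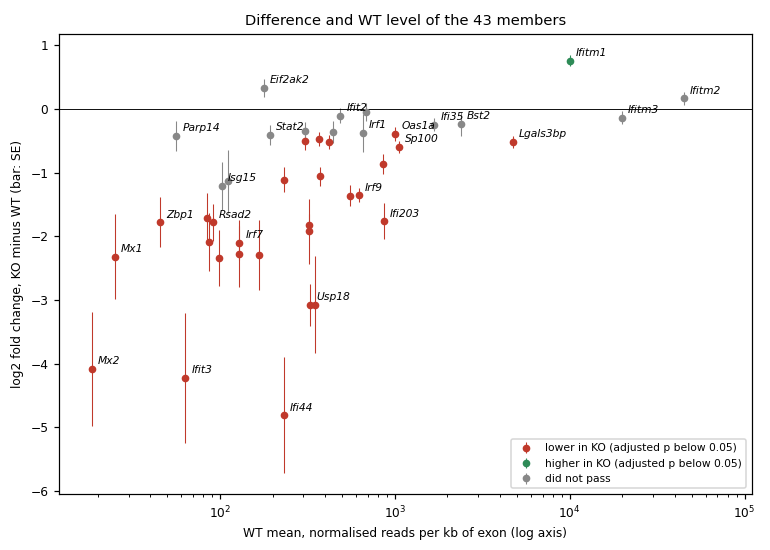
Log2 fold change KO minus WT (y axis, bars for the SE) of the 43 genes against their mean WT level in normalised reads per kilobase of exon (x axis, log scale), coloured by the result of the limma test. Ifitm2, Ifitm3, Ifitm1, Lgals3bp and Bst2 at the right lie between −0.52 and 0.76, while Mx2, Ifit3 and Ifi44 reach below −4.

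The libraries of a group did not behave alike over these genes. WT2 was the lowest WT library in 26 of the 43 genes and KO1 the lowest KO library in 27, while KO2 was the highest KO library in 26. Relative to the WT mean of each gene, the median over the 43 genes was −1.26, −0.97 and −0.94 on the log2 scale in KO1 to KO3 and 0.04, −0.10 and 0.08 in WT1 to WT3. Every KO library thus lay below every WT library in this median. Without the IFITM genes, the summed level of the remaining 40 genes was 46629, 52238 and 48175 normalised reads in KO libraries and 80953, 73517 and 80519.7 in WT libraries.

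Around the members, the pathway genes from ligand to feedback showed differences in both directions. Of 50 such genes 38 were in the test, 11 of them fell and 6 rose, read against the 13% and 10.3% of all genes tested. Without KO3 the number that fell was 6, as it was without limma's intensity trend, which left 3 that rose. Of all genes tested, 1639 were lower and 978 higher without KO3, and 1750 and 1071 without the trend. In the main fit the median log2 fold change of the 38 pathway genes was 0.14. Interferon genes were scarcely read: of 12 listed, 10 had 0 reads in every library, among them Ifnb1 and 6 interferon alpha genes. A count of 0 allows up to 3 reads per library, or 2.59 to 3.51 normalised reads, and this limit covers counting error only. Ifng had 0 reads in each KO library and 4, 13 and 0 reads in WT libraries, and Ifnk had 3 reads in KO2 and 0 elsewhere.

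Both chains of the type I receptor fell. Ifnar1 had 3131, 3722 and 3547 normalised reads in KO libraries and 4859, 4499 and 4600.3 in WT libraries. The groups did not overlap, and the log2 fold change was −0.43 ± 0.10 (SE, limma adjusted p = 0.0173). The call for Ifnar1 was lost without WT1 (adjusted p = 0.0563), KO3 (0.0609) or limma's intensity trend (0.0773). Ifnar2 had 2677, 3673 and 3444 normalised reads in KO libraries and 4065, 4657 and 4911 in WT libraries. Its fall (−0.49 ± 0.14 SE, limma adjusted p = 0.0409) lost the call in 7 of 19 alternatives, including when leaving out any WT replicate and without KO1 or KO3 (adjusted p up to 0.125). Il10rb, a chain of the interferon lambda receptor, fell by 0.37 on the log2 scale. That call was lost without WT2, WT3, KO3 or limma's intensity trend (adjusted p of up to 0.0807). Ifngr1, the ligand-binding chain for interferon gamma, rose by 0.49, and this call was lost in 7 of 19 alternatives, including when leaving out WT1, WT3, KO1 or KO3 and with quantile normalization (adjusted p = 0.239).

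Of the kinases downstream of the receptor, Jak1 fell to 72.9% of its WT level (−0.46) and Jak2 to 68.2% (−0.55), with limma adjusted p-values of 0.0102 and 0.00642. Without limma's trend term, Jak1 lost its call (adjusted p = 0.0682). Tyk2, the other kinase at the type I receptor, had 2578, 3738 and 2721 normalised reads in KO libraries and 2955, 2187 and 2809 in WT libraries and did not pass (0.18, interval −0.23 to 0.58).

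Of 16 sensing adaptors and receptors 3 fell and 3 rose, beside 13% and 10.3% of all genes tested. Mavs, the mitochondrial adaptor of RIG-I and MDA5, fell to 65.5% of its WT level (−0.61, limma adjusted p = 0.00492), and Irf8, a factor of dendritic cells and monocytes, to 47.9% (−1.05, adjusted p = 0.00571). Tlr7, a receptor for single-stranded RNA, fell by 0.86 on the log2 scale. That call was lost without WT2, WT3 or KO3, with the replicate number as a block, and with quantile normalization (adjusted p = 0.134). Traf3 and Myd88, adaptors of the sensor and Toll-like receptor branches, rose. Traf3 had 2052, 1306 and 1113 normalised reads in KO libraries and 509.98, 546 and 561 in WT libraries (1.42 ± 0.22 SE, limma adjusted p = 0.00448). Myd88 averaged 8912 ± 864 in KO and 4441 ± 539.9 in WT (SD, n = 3 each), a difference of 1.01 (limma adjusted p = 0.00164). Ikbke, a kinase that activates IRF proteins, rose by 0.46, and lost its call without KO3 (adjusted p = 0.0606) or limma's intensity trend.

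Of 12 genes that restrain the pathway 3 fell and 2 rose, beside 13% and 10.3% of all genes tested. Trex1, the exonuclease that clears cytosolic DNA, had 153, 192 and 191 normalised reads in KO libraries and 690.1, 488 and 1349 in WT libraries. It showed the largest fall of the pathway list (−2.11 ± 0.35 SE, limma adjusted p = 0.00568). Irf2, which competes with IRF1 at its sites, fell to 45.9% of its WT level (−1.12, limma adjusted p = 0.00253), and Pias1, an inhibitor of STAT proteins, to 75.4% (−0.41, adjusted p = 0.0125). The call for Pias1 was lost without KO3 (adjusted p = 0.0552) or limma's intensity trend (0.0703). Nlrx1, a mitochondrial NLR protein gene, rose to 209% (1.08, limma adjusted p = 0.0028). Ptpn1, a JAK phosphatase, rose by 0.46. That call was lost without WT1 (adjusted p = 0.0562), WT2 (0.0572) or limma's intensity trend (0.0751), or with scaling to a common total (0.0619). Socs1, the classic feedback inhibitor, had 177, 144 and 214 normalised reads in KO libraries and 133, 159.9 and 137 in WT libraries, which overlapped (0.30, interval −0.29 to 0.89).

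**Figure D4:**
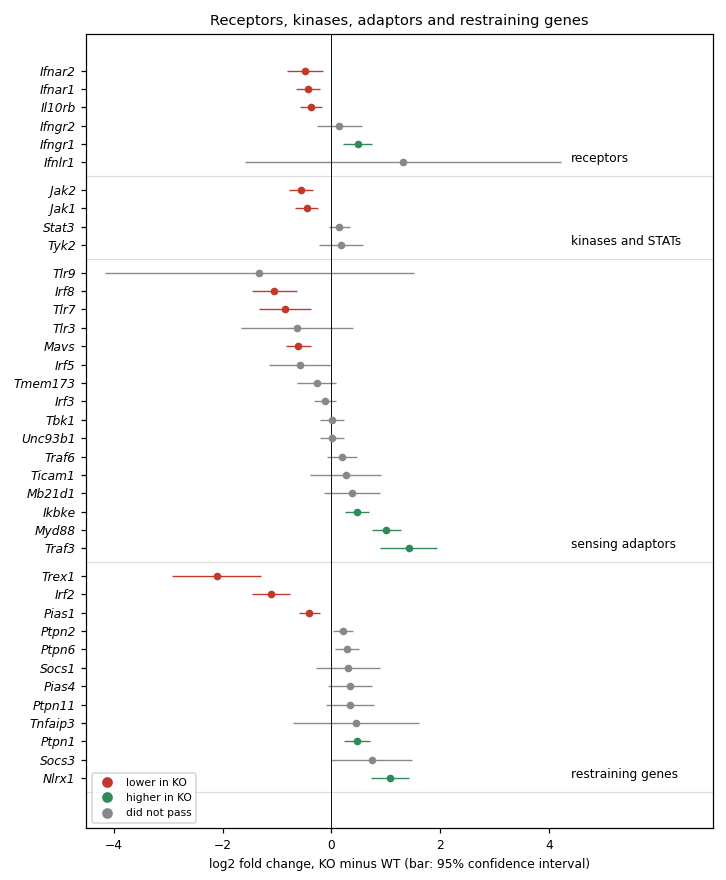
Log2 fold change KO minus WT (x axis, bars for the 95% confidence interval from limma) of 38 tested receptors, kinases, adaptors and restraining genes, coloured by the result of the test. Ifnar1, Ifnar2, Jak1 and Jak2 lie left of 0 with intervals that do not reach it, and Traf3, Myd88 and Nlrx1 lie furthest to the right among genes that passed.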

How the data were processed

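Each of the authors' deposited files gives a signal per gene for its library, headed only as expression. The submitters' processing notes name mm10, mm8, StringTie and HISAT2, without saying which did what. Poly(A) libraries came from a VAHTS kit, per the labels' protocols. In every library 100% of the values were whole multiples of a fixed step (tolerance 0.01 of a read), the steps being 0.863 to 1.17, so the deposited signal is read counts divided by a size factor. The recovered totals were 37951985 to 58692037 reads per library. Coordinates were identical for the 49035 identifiers found with their version in GENCODE M21, where 39 of the 43 members matched by version and the others by identifier, so coordinates are GRCm38.

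KO was compared with WT by limma 3.58.1 under R 4.3.3, using lmFit and a trended eBayes, two-sided, on log2(value + 1). The 20136 genes tested reached a value of 1 in 3 or more of the 6 libraries. On this scale the pseudocount pulls the change of low genes toward 0, while the mean of logs weighs a library near 0 heavily, so that Ifit3 had −4.23 here, −5.39 with a pseudocount of 0.1 and −3.65 in edgeR. edgeR 4.0.16 and DESeq2 1.42.0 on the recovered reads, other scalings, variance models, pseudocounts and filters, the replicate number as a block and leaving out each library were the alternatives, 19 in all, of which scaling by trimmed means of M-values (TMM) was added after seeing the data. No pair of libraries in a group agreed within sampling noise (chi-square per degree of freedom 37.98 to 80.5). Nothing states that libraries came from separate animals, so the spread behind the p-values is that among these samples and may be technical. The members and lists were chosen with earlier results of these data known, and 1 further gene of the pathway is not reported here. Each member has its library values, or its means and fold change, and the fullest values went to the largest and smallest change of each role, to genes that rose and to a fixed set of key genes. The fit was tested on simulated data. Shared sequence was measured as the share of distinct 50-base words of GENCODE M21 transcripts of a gene that stand in another gene.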

Additional observations from a re-analysis of the deposited data

How the results depend on the processing

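The direction of each of the 28 lower members and of Ifitm1 held in all 19 alternatives, and 14 of these 29 calls held in all of them. The other 15 were lost in 1 or more, and 7 of the 14 members that did not pass gained a call in 1 or more. Without the intensity trend 16 members were lower, and of the other pathway genes 6 were lower and 3 higher. Of all genes tested, 1750 were lower and 1071 higher in that fit. Leaving out a library, with fewer samples in each fit, gave 16 to 28 lower members, 6 to 12 lower pathway genes, and member medians of −1.22 to −0.95. Those fits called 1617 to 2548 of all genes tested lower. Library quality weights gave 2 members higher, beside 3198 of all genes tested, and a median of −0.94. The median was −1.25 with scaling to a common total, which moved the median of all genes to −0.16, and −0.89 with quantile normalization, which moved it to 0.08. With CT required after the response element core, 7 members had a match. Leaving out a library moved Dtx3l between −0.15 (without KO2) and 0.082 (without KO1), with 0.042 without WT1, and Ifitm2 reversed to −0.14 with quantile normalization. Replicate numbers are shared across groups, but same-numbered libraries did not deviate together (correlations −0.0234 to −0.0107), so they were not treated as pairs. The replicate block gave 25 members lower and 1 higher, beside 2157 and 1705 of all genes tested. The cause of these shifts was not tested. Depth limits Mx2, Ifit3, Mx1, Ifi27l2a and Isg15 most, whose KO means were 5.05 to 32.5 normalised reads.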
